A study of Homo sapiens with 4 samples.

Results

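The nuclear genes for the subunits of the mitochondrial respiratory chain were followed through siRNA knockdown of PELP1 in U87 MG, a human glioblastoma cell line in long use. The genes were found by symbol. Complex I genes begin with NDUFA, NDUFB, NDUFC, NDUFS or NDUFV followed directly by a digit, or are NDUFAB1. Complex II genes are the SDH genes A to D, and complex III genes begin with UQCR. Complex IV genes begin with COX and a digit from 4 to 8, and complex V genes with ATP5. Symbols with a hyphen or a pseudogene ending were left out. This rule gave 88 genes of 23228 in the count tables: 39 for complex I, 4 for complex II, 9 for complex III, 18 for complex IV and 18 for complex V. Enough reads for a test were present for 81 of the 88. The other 7, namely COX4I2, COX6A2, COX6B2, COX7A1, COX7B2, COX8C and ATP5L2, were not tested. The symbols are those of an older annotation, so that ATP5A1 is now ATP5F1A and ATP5O is now ATP5PO. The rule also takes in 3 genes whose products are not subunits of these complexes: COX4NB, now EMC8, a subunit of the endoplasmic reticulum membrane protein complex, and ATP5S and ATP5SL, now DMAC2L and DMAC2.

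The respiratory chain lies in the inner mitochondrial membrane. Complexes I and II pass electrons from NADH and succinate to coenzyme Q, complex III passes them on to cytochrome c, and complex IV passes them to oxygen. Complexes I, III and IV pump protons as they do so, and complex V, the ATP synthase, uses the proton gradient to make ATP. Mitochondrial DNA encodes a few core subunits of complexes I, III, IV and V; these were not analysed here. All other subunits, and all of complex II, come from nuclear genes. PELP1 is a nuclear scaffold protein, known as a coregulator of steroid receptors and as part of a complex that acts in ribosome maturation.

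Cells were grown in DMEM with serum and transfected, with oligofectamine as the carrier, with a control siRNA in 2 libraries or with a PELP1 siRNA in 2 libraries, and total RNA was taken 72 h later. All 4 libraries therefore come from transfected cells of 1 line. For the siRNAs no sequence is given in the sources used here. The labels call the libraries duplicates and do not say whether these were separate cultures, so that the p-values measure only the spread between these libraries, which may be technical. Levels are given as CPM, the read count of a gene relative to the TMM-scaled total of its library. In bulk RNA, fewer cells with a transcript and less transcript per cell cannot be told apart. The comparison asks which genes of the chain differ in RNA level when PELP1 is depleted.

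The libraries held 18670162 to 22858988 reads assigned to genes. PELP1 was at 74.0 and 78.1 CPM in the control libraries and at 15.2 and 17.7 CPM in the PELP1 siRNA libraries, a log2 fold change of -2.21 ± 0.097 (SE; edgeR quasi-likelihood test, adjusted p = 8.32e-14). The mesenchymal and glioma-associated genes VIM and CD44 were high in all 4 libraries, at 5610 to 7140 and 1956 to 2483 CPM. The astrocyte gene GFAP was low, at 1.22 to 1.84 CPM, and SOX2 and S100B lay between 0 and 0.103 CPM. Of 3 immune markers, PTPRC (at most 0.0893 CPM) and AIF1 (0) were at or near 0, and CD68, a lysosomal protein typical of macrophages, lay at 385 to 427 CPM in all 4 libraries. The oligodendrocyte gene MOG was at 0, while the epithelial gene EPCAM lay at 0.671 to 1.68 CPM and the neuronal genes SYT1 and SNAP25 at 14.4 to 19.4 and 30.9 to 48.6 CPM. Both PELP1 siRNA libraries differed more from each other than the control libraries did: the chi-square per gene was 7.13 against 2.09, and 29.8 to 31.5 between libraries of different groups.

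RNA of the respiratory chain was higher after PELP1 knockdown in every complex, by a small amount. Of the 81 tested members, 41 rose, 2 fell and 38 were not called at an adjusted p below 0.05, and 77 had a log2 fold change above 0. Over all 13234 genes tested, 12.9% were called higher and 15.0% lower, and 50.1% had a log2 fold change above 0. The median log2 fold change was 0.23 for the members (quartiles 0.13 and 0.28) and 0.00088 for all genes (quartiles -0.19 and 0.17). Both PELP1 siRNA libraries lay above both control libraries for 59 members and below both for 3, against 32.0% and 32.3% of all genes tested. Without the 3 genes that are not subunits, 41 of 78 rose and 1 fell. By the DESeq2 Wald test 33 members were called higher, against 8.56% of all genes, and without a filter on low counts 41 were, against 9.63%.

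Summed over the members, the chain made up 8715 and 8741 CPM in the control libraries and 9709 and 10530 CPM in the PELP1 siRNA libraries. The means were 8728 ± 18.4 and 10120 ± 580 CPM (SD, n = 2), a ratio of 1.16. By complex, the ratio of summed levels was 1.14 for complex I, 1.18 for complex II, 1.17 for complex III, 1.16 for complex IV and 1.17 for complex V. Differences between complexes were not tested. The call rates were also close: 19 of 39 genes rose in complex I, 2 of 4 in complex II, 5 of 9 in complex III, 5 of 12 in complex IV and 10 of 17 in complex V.

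**Figure D1:**
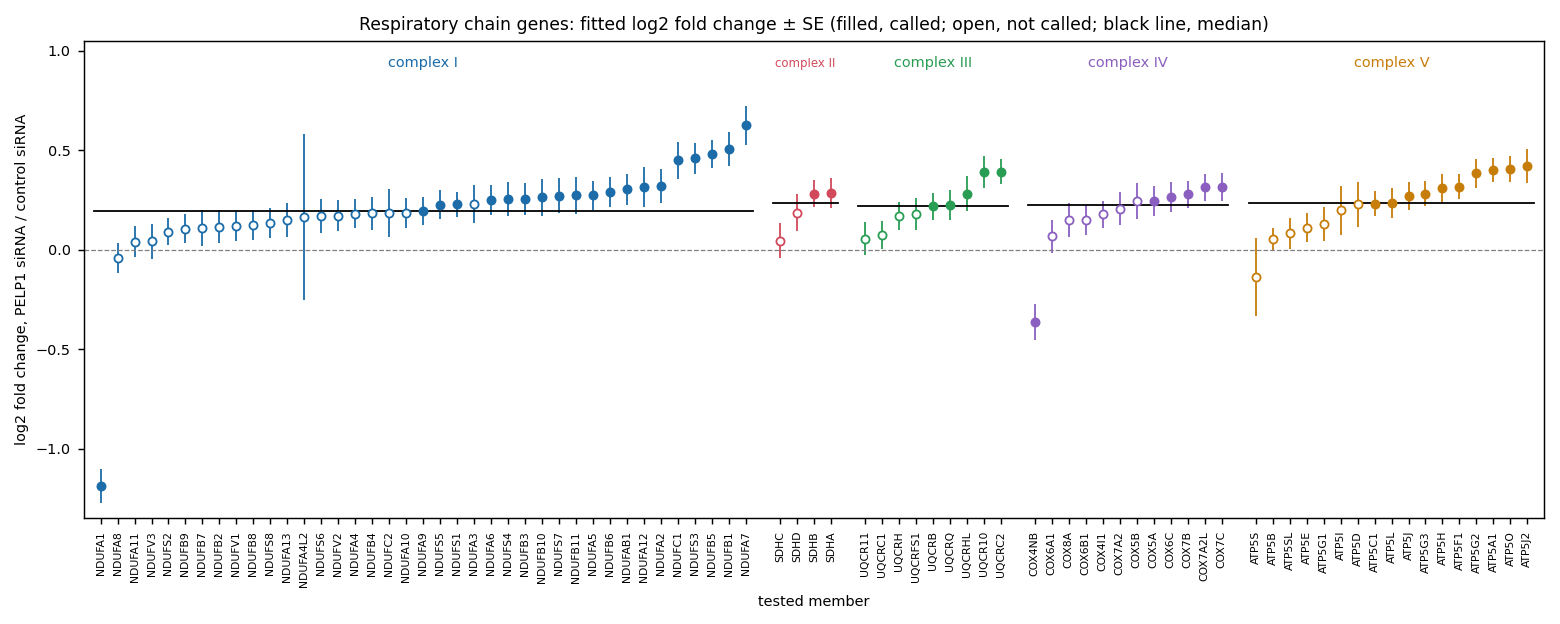
Fitted log2 fold change (y axis, PELP1 siRNA over control siRNA) with its SE for each of the 81 tested members (x axis), grouped by complex and sorted; filled points were called at an adjusted p below 0.05, open points were not, and the black lines are the medians of each complex. Most points lie between 0 and 0.63, and NDUFA1 at -1.19 and COX4NB at -0.36 are the filled points below 0.

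The size of the rise differed between the PELP1 siRNA libraries. Relative to the control mean, the median member was higher by 0.15 (log2) in PELP1 siRNA library 1 and by 0.30 in library 2, while the median of all genes was at 0.0014 and 0.00061. In library 1, 59 of the 81 members lay above both control libraries, and in library 2, 78 did, against 43.1% and 43.4% of all genes tested. Complex IV had the smallest median in library 1, at 0.10 against 0.29 in library 2, and complex V the highest in both, at 0.23 and 0.32. Complex I had medians of 0.13 and 0.29, complex II of 0.16 and 0.26 and complex III of 0.12 and 0.27. Fitted without PELP1 siRNA library 1, 71 members were called higher, where 20.2% of all genes tested were, and without PELP1 siRNA library 2, 39 were, where 19.3% of all genes were.

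**Figure D2:**
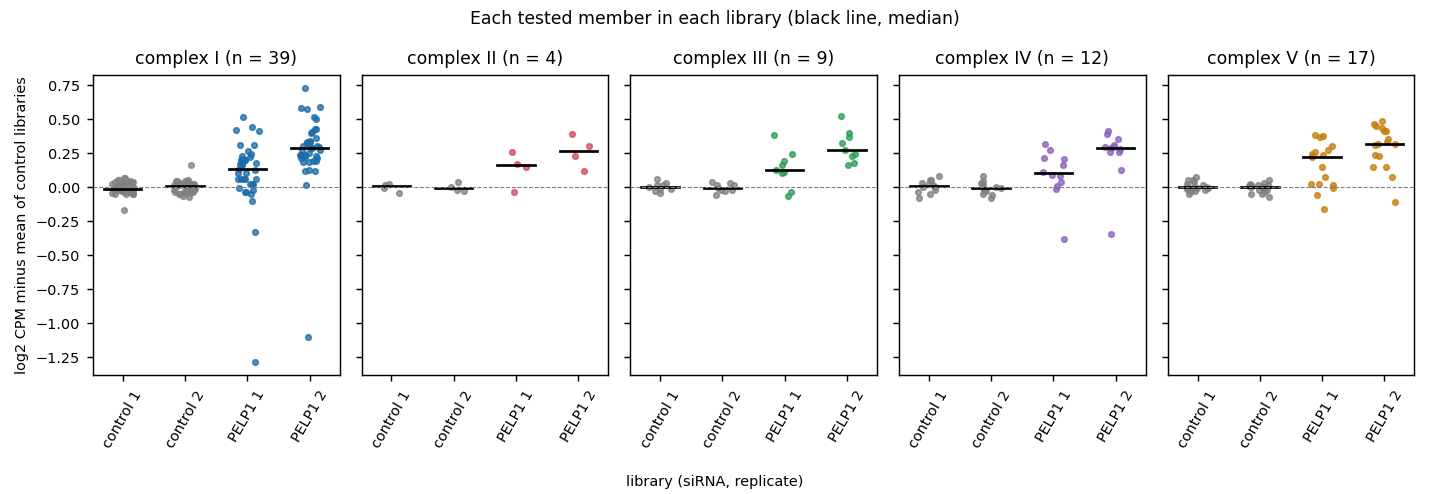
Log2 CPM minus the mean of the control libraries (y axis) for each tested member in each of the 4 libraries (x axis), with 1 panel per complex; grey points are control libraries, coloured points PELP1 siRNA libraries and black lines medians. The medians of the PELP1 siRNA libraries are above 0 in all 5 panels, and that of library 2 is above that of library 1 in each.

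Many of the calls were lost when either control library was left out. With control library 1 left out, 11 members were called higher and 1 lower, where 3.89% and 7.01% of all genes tested were, and with control library 2 left out the numbers were 11 and 1, against 4.56% and 7.98%. The median of the members changed little, at 0.23 without either. In these fits the lone control library is assumed to vary like the PELP1 siRNA libraries, which differed more from each other than the control libraries did. In the fits without 1 PELP1 siRNA library, the spread comes from the control libraries alone. A group of 11 members was called in the same direction in all 15 fits made: NDUFA1 lower, and NDUFA7, NDUFB1, NDUFB5, NDUFC1, NDUFS3, UQCRC2, UQCR10, ATP5A1, ATP5G2 and ATP5O higher. The share of all genes tested that were called in all 15 fits was not computed, so this count has no background beside it. NDUFC1 is named for this property, chosen after its values were seen. All other calls in the paragraphs on the complexes were lost in at least 1 of the 15 fits.

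The gap between the PELP1 siRNA libraries moved with base composition. Across the 80 tested members with a canonical transcript in the annotation, the difference between library 2 and library 1 had a Spearman correlation of 0.60 (Pearson 0.58) with the GC content of the transcript, and of -0.51 with its length. The points share the 4 libraries, so these are descriptions; across 12608 genes tested the correlation with GC content was 0.53. In the 27 members of lowest GC content, 34.6 to 44.9%, the medians were 0.21 in library 1 and 0.30 in library 2, and 19 were called higher. In the 26 of middle GC content, 45.1 to 52.5%, they were 0.18 and 0.30, and 15 were called higher. In the 27 of highest GC content, 52.7 to 69.5%, they were 0.02 and 0.26, and 6 were called higher. The rise in library 1 was thus smallest among GC-rich members, while library 2 was similar in all 3 groups. With the trend on length and GC content removed from the counts of every gene, 46 members were called higher and 2 lower, against 22.2% and 18.8% of all genes tested, with a median log2 fold change of 0.15 for the members and 0.02 for all genes. The members are short, with a median transcript of 830.5 bases against 3348.5 for all genes. The part of RNA quality in these differences was not tested.

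**Figure D3:**
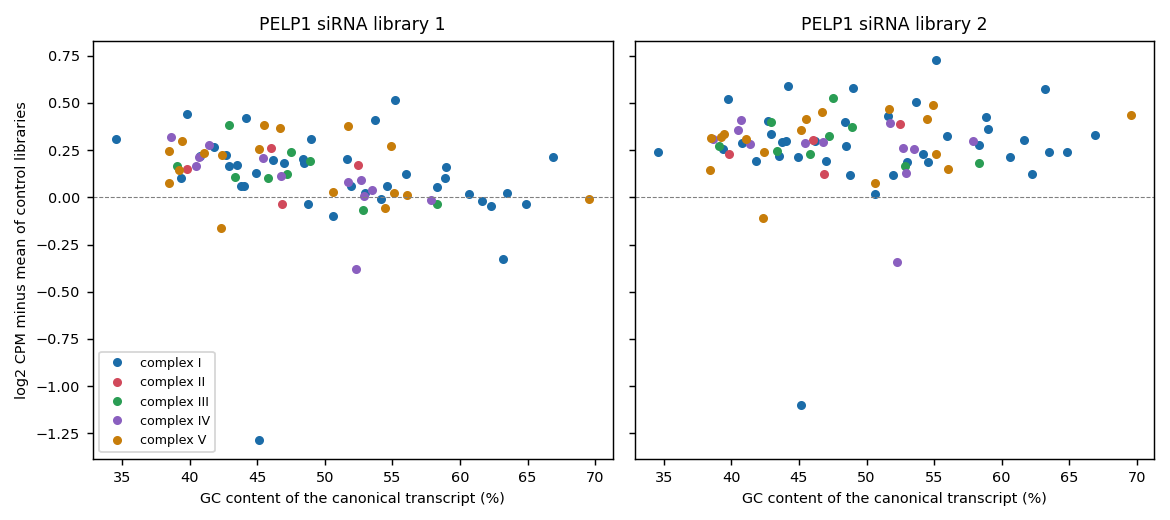
GC content of the canonical transcript in percent (x axis) against log2 CPM minus the mean of the control libraries (y axis) for 80 members, in PELP1 siRNA library 1 (left) and library 2 (right), coloured by complex. The points fall with GC content on the left (Spearman -0.47) and show no trend on the right (0.0063); the lowest point in both panels is NDUFA1.

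Complex I, the NADH dehydrogenase, has core subunits that carry out electron transfer and accessory subunits around them. Of its 39 tested genes 19 rose, with log2 fold changes from 0.19 to 0.63, 1 fell and 19 were not called; the median was 0.19. Of the 7 core genes 3 rose (median 0.17), and of the other 32 genes, counted as accessory, 16 rose and 1 fell (median 0.21). The 32, and so the 39, take in NDUFA4, now placed in complex IV, and its paralog NDUFA4L2. Neither was called, and medians without them were not computed. By name, 7 of 15 NDUFA genes rose, 6 of 11 NDUFB genes, 1 of 2 NDUFC genes, 5 of 8 NDUFS genes and 0 of 3 NDUFV genes. The NDUFV genes encode the NADH-binding flavoprotein subunit NDUFV1, the subunit NDUFV2 and the small subunit NDUFV3. Their log2 fold changes were 0.12, 0.17 and 0.04; 1 of the 3 had an unadjusted p below 0.05, and 0 were called by DESeq2 or limma-voom.

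NDUFA1 fell, against the direction of its complex. It encodes a small accessory subunit of the membrane arm that is needed to assemble complex I, and the gene lies on chromosome X at 119005795 to 119010625 (GRCh37, plus strand). Its counts were 1616 and 1785 in the control libraries and 660 and 721 in the PELP1 siRNA libraries, or 83.4, 79.7, 33.5 and 37.99 CPM. Both PELP1 siRNA libraries were far below both control libraries. The means were 81.5 ± 2.61 and 35.7 ± 3.17 CPM (SD, n = 2), a fold of 0.439 and a log2 fold change of -1.19 ± 0.086 (SE; adjusted p = 3.65e-10). Per transcript length it was the member with the 11th highest level in control cells, at 194 CPM per kb, and stood at 84.9 CPM per kb after knockdown.

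The rises in complex I were led by NDUFB5, NDUFA7, NDUFS3 and NDUFB1. NDUFB5, an accessory subunit of the membrane arm, was at 84.1 and 86.3 CPM in control and 116 and 122 CPM in PELP1 siRNA libraries, a log2 fold change of 0.48 ± 0.071 (SE; adjusted p = 1.99e-05). NDUFA7, an accessory subunit of the matrix arm, was at 25.8 and 23.4 against 35.1 and 40.7 CPM, and rose by 0.63 ± 0.099 (adjusted p = 4.48e-05). In both genes the groups were well apart. NDUFS3, a core subunit of the matrix arm, was at 64.1 and 62.8 against 84.4 and 90.05 CPM, a rise of 0.46 ± 0.076 (adjusted p = 7.49e-05). NDUFB1, a small accessory subunit of the membrane arm, was at 41.1 and 42.7 against 56.05 and 63.0 CPM, a rise of 0.51 ± 0.087 (adjusted p = 1.10e-04). The value for NDUFA7 is uncertain, since 32.5% of its exon bases are shared with a readthrough gene on the same strand. To a lesser degree this holds for NDUFS3, with 16% shared on the same strand, and NDUFB5, with 7.26%.

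NDUFA4 was first described as a complex I subunit and is now placed in complex IV. It was at 105 and 106 CPM in control and 113 and 126 CPM in PELP1 siRNA libraries, without overlap, and was not called (log2 fold change 0.18, adjusted p = 0.0656). NDUFA4L2, its hypoxia-responsive paralog, had only 11 and 16 counts in control and 10 and 18 in PELP1 siRNA libraries, and a difference was not detectable at this depth (adjusted p = 0.803).

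**Figure D4:**
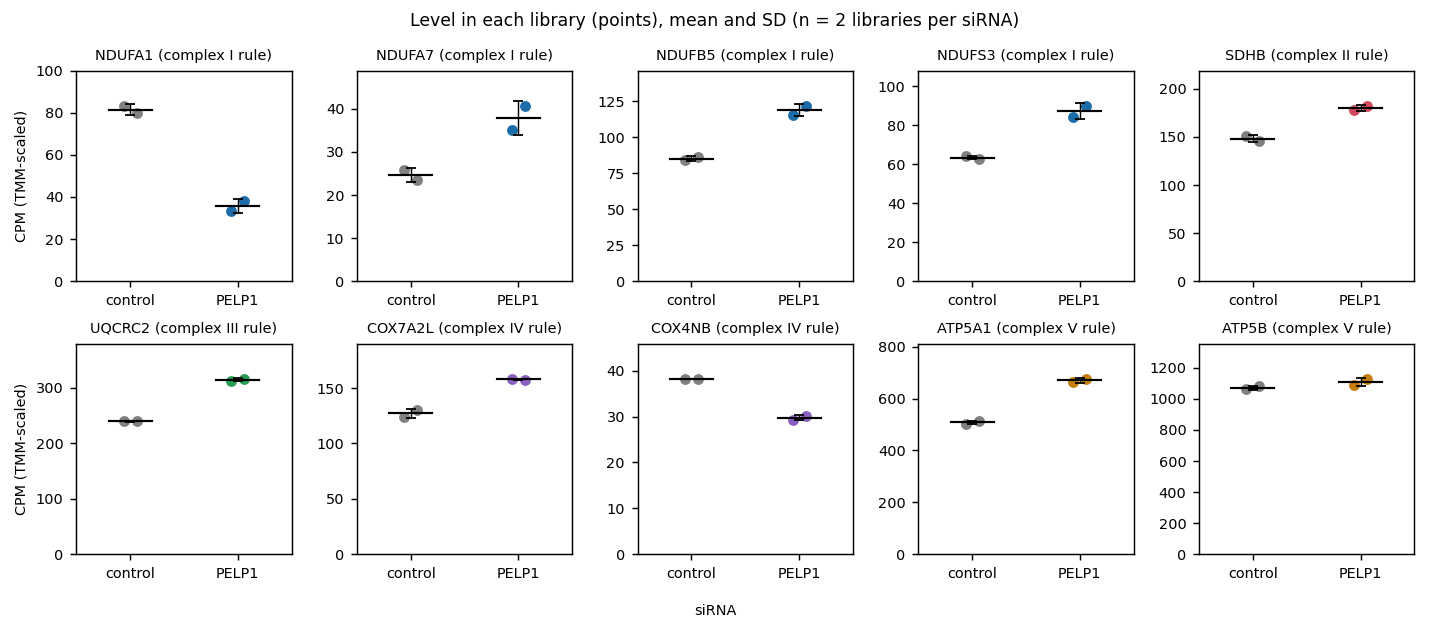
TMM-scaled CPM (y axes, from 0) of 10 members in the control siRNA and PELP1 siRNA libraries (x axes); points are libraries, lines means and bars the SD (n = 2 per group). NDUFA1 drops from 81.5 to 35.7 CPM, COX4NB from 38.2 to 29.7 CPM, ATP5B differs little, and the other 7 are higher in both PELP1 siRNA libraries.

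Complex II, succinate dehydrogenase, links the citric acid cycle to the chain. Its catalytic subunits rose and its membrane anchors were not called. SDHB, the iron-sulfur subunit, was at 151 and 145 CPM in control and 178 and 182 CPM in PELP1 siRNA libraries, means of 148 ± 3.68 and 180 ± 3.49 CPM (SD, n = 2), a log2 fold change of 0.28 ± 0.066 (adjusted p = 0.00229). SDHA, the flavoprotein subunit, was at 102 and 103 against 115 and 134 CPM, a rise of 0.28 ± 0.076 (adjusted p = 0.00682). In both genes the PELP1 siRNA libraries lay above the control libraries. The anchor SDHD was at 27.0 and 28.5 against 30.7 and 32.5 CPM (log2 fold change 0.19, adjusted p = 0.143), and the anchor SDHC at 45.2 and 44.1 against 43.5 and 48.6 CPM, with overlap (0.04, adjusted p = 0.743). That catalytic subunits and anchors differ was not tested. Neither call held without control library 1 (adjusted p = 0.0903 for SDHB and 0.156 for SDHA) or without control library 2 (0.174 and 0.135).

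Complex III, the cytochrome bc1 complex, had 9 tested genes, of which 5 rose and 4 were not called, with a median log2 fold change of 0.22. UQCRC2, a core protein of the matrix side, was at 240 and 239 CPM in control and 313 and 317 CPM in PELP1 siRNA libraries, a rise of 0.39 ± 0.062 (adjusted p = 4.30e-05). Its partner UQCRC1 was at 242 and 256 against 243 and 282 CPM, with overlap, and was not called (0.08, adjusted p = 0.457). UQCR10, a small subunit, was at 89.9 and 87.6 against 105 and 128 CPM, a rise of 0.39 ± 0.082 (adjusted p = 9.19e-04). PELP1 siRNA library 2 was the higher of the pair here. UQCRB, a small subunit near the coenzyme Q site, rose by 0.22 (adjusted p = 0.0181). UQCRHL, a near copy of the hinge protein gene UQCRH, rose by 0.28 (adjusted p = 0.0162), while UQCRH itself had 0.17 (adjusted p = 0.0809); reads of this pair may be split between the copies, so that the values of both are uncertain. The calls of UQCRB and UQCRHL did not hold without control library 1 (adjusted p = 0.241 and 0.298) or without control library 2 (0.328 and 0.162), and that of UQCRB not with the length and GC trend removed (0.0887, at a log2 fold change of 0.26).

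Complex IV, cytochrome c oxidase, had 12 tested genes by the rule, of which 5 rose, 1 fell and 6 were not called. The gene that fell is COX4NB, so that among the 11 subunit genes 5 rose and 0 fell by the edgeR test (0 also at an unadjusted p below 0.05, by DESeq2 and by limma-voom), and none had a log2 fold change below 0 (median 0.24). COX7A2L, which takes part in joining complexes III and IV into supercomplexes, was at 124 and 130 CPM in control and 158 and 158 CPM in PELP1 siRNA libraries, a rise of 0.31 ± 0.067 (adjusted p = 0.00111). COX7C, a small subunit, was at 162 and 159 against 186 and 213 CPM, a rise of 0.32 ± 0.071 (adjusted p = 0.00165). Both genes were higher in each PELP1 siRNA library than in either control library. COX7B, another small subunit, was at 118 and 113 against 140 and 140 CPM, a rise of 0.28 ± 0.068 (adjusted p = 0.00351). COX6C was at 88.9 and 85.8 against 98.0 and 112 CPM, a rise of 0.27 ± 0.077 (adjusted p = 0.0118). None of the 4 calls held without control library 1 (adjusted p = 0.145 for COX7A2L, 0.0621 for COX7C, 0.0992 for COX7B and 0.151 for COX6C), and of the 4 that of COX7A2L alone held without control library 2 (the others had 0.0877, 0.213 and 0.250). The call of COX6C also did not hold with the length and GC trend removed (0.0632).

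Several subunits of complex IV exist as a common and a tissue-restricted form, and U87 MG cells had reads for the common forms. COX4I1, the common form of subunit 4, was at 226 and 231 CPM in control and 243 and 273 CPM in PELP1 siRNA libraries and was not called (log2 fold change 0.18, adjusted p = 0.0541). COX4I2, the lung-associated form, had 0 counts in all 4 libraries, which allows a level of up to 0.134 to 0.158 CPM (3 counts of the library; counting error only). COX6A1 was at 54.4, 58.0, 56.5 and 61.5 CPM in the same order of libraries and was not called (0.07, adjusted p = 0.575); COX6A2, the heart and muscle form, had 1 count in 1 library. COX6B1 was at 113, 113, 116 and 135 CPM (0.15, adjusted p = 0.146), and COX6B2, the testis form, had 1 count in each of 2 libraries. COX7A2 was at 62.2, 57.8, 64.8 and 73.4 CPM (0.21, adjusted p = 0.0686), and COX7A1, the muscle form, had 2, 2, 2 and 4 counts. COX8A was at 106, 98.2, 101 and 126 CPM, with overlap (0.15, adjusted p = 0.202), and COX8C had 1 count in each of 2 libraries. COX7B2 had 0 counts in all 4 libraries. No difference in these restricted forms was detectable at this depth.

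Complex V, the ATP synthase, has a catalytic head, a stalk and a membrane ring. Of its 17 tested genes 10 rose, with log2 fold changes from 0.23 to 0.42, 0 fell by the edgeR test (0 also at an unadjusted p below 0.05, by DESeq2 and by limma-voom) and 7 were not called; without ATP5S and ATP5SL the median was 0.27. ATP5A1, the alpha subunit of the head, was at 503 and 513 CPM in control and 663 and 677 CPM in PELP1 siRNA libraries, means of 508 ± 6.77 and 670 ± 9.68 CPM (SD, n = 2), a rise of 0.40 ± 0.060 (adjusted p = 2.14e-05). ATP5B, the beta subunit that pairs with it in the head, was at 1063 and 1082 against 1092 and 1130 CPM and was not called (0.05, adjusted p = 0.551). The libraries of the groups did not overlap for either gene, but the gap was small in ATP5B. ATP5O, the subunit that joins the head to the outer stalk, was at 193 and 207 against 258 and 273 CPM, a rise of 0.41 ± 0.066 (adjusted p = 5.54e-05). ATP5F1, subunit b of the outer stalk, was at 239 and 240 against 295 and 302 CPM, a rise of 0.32 ± 0.062 (adjusted p = 4.87e-04), a call that did not hold without control library 1 (adjusted p = 0.0677) or without control library 2 (0.0589).

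The ring subunit c is made from 3 genes with the same mature product. ATP5G2 was at 183 and 177 CPM in control and 217 and 253 CPM in PELP1 siRNA libraries, a rise of 0.38 ± 0.072 (adjusted p = 2.86e-04). ATP5G3 was at 252 and 258 against 302 and 317 CPM, a rise of 0.28 ± 0.063 (adjusted p = 0.00161), which did not hold without control library 1 (adjusted p = 0.146) or without control library 2 (0.0804). ATP5G1 was at 63.6 and 59.3 against 62.4 and 71.9 CPM, with overlap, and was not called (0.13, adjusted p = 0.266). Per transcript length, the control level was 285 CPM per kb for ATP5G2, 98.5 for ATP5G3 and 95.1 for ATP5G1. Among the genes that are not subunits, ATP5S was at 3.51 and 3.66 against 3.20 and 3.32 CPM (-0.14, adjusted p = 0.633) and ATP5SL at 76.3 and 72.3 against 74.98 and 82.5 CPM (0.08, adjusted p = 0.453).

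COX4NB, the second gene that fell, lies on chromosome 16 at 85805364 to 85833214 (GRCh37, minus strand), head to head with COX4I1, whose start it overlaps. It was at 38.3 and 38.2 CPM in control and 29.3 and 30.1 CPM in PELP1 siRNA libraries, a log2 fold change of -0.36 ± 0.090 (SE; adjusted p = 0.00396). COX4I1 had a fold change above 0, and 0.0995% of the exon bases of COX4NB are shared with it. The call did not hold without control library 1 (adjusted p = 0.107) or without control library 2 (0.0969).

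Reads were counted without a stated strand setting, and overlapping genes on opposite strands cannot then be told apart. Of the tested members 20 share at least 5% of their exon bases with a gene on the opposite strand, and 13 of these were called higher. Among the 46 members with less than 5% shared with any gene on either strand, 22 were called higher. Over all genes tested 12.9% were called higher, and the share among all genes with or without such overlap was not computed. Shared bases in members named above include 24.5% in UQCR10 (opposite strand), and 21.7% in SDHA and 15.5% in ATP5O (same strand).

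Sequence words in the 3′ UTR were examined because an earlier analysis of these same fold changes had picked the 7-base words CTCAGTT and GCCTTGA as those of genes lower after knockdown; the shares below are therefore a description. Among 12231 tested genes with an annotated 3′ UTR, 25.2% carried at least 1 of these words, and among the 1889 called lower 42.6% did. Of the 79 tested members with a 3′ UTR, 10 carried one, or 12.7%. These shares are not adjusted for the length of the 3′ UTR, and a longer one has more places for a word. The median transcript was 830.5 bases for the members and 3348.5 for all genes. Both members that fell are among the 10. Of the other 8, 5 rose, among them NDUFB5, and 3 were not called. The sites of the members that fell and of NDUFB5, the carrier with the smallest adjusted p among those that rose, are printed below 5′ to 3′ in the sense of the transcript from the GRCh37 genome, 29 bases each, with the word in capitals, to show that CTCAGTT occurs in both.
NDUFA1, chrX:119010530-119010536 (plus strand, word): gaaaaaaataaCTCAGTTatggccatcta
COX4NB, chr16:85813085-85813091 (minus strand, word): ctgtggactctCTCAGTTgtatgttgcta
COX4NB, chr16:85813182-85813188 (minus strand, word): aagtggcatgtGCCTTGAaagggggcaga
NDUFB5, chr3:179345025-179345031 (plus strand, word): gtaagcagaaaCTCAGTTgtacgtaagaa
In NDUFA1 the word starts at base 33 of a 3′ UTR of 128 bases, in a transcript of 421 bases. In NDUFB5, which rose, it starts at base 3197 of a 3′ UTR of 3607 bases. In COX4NB the words start at bases 126 and 223 of 1084.

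The promoters were read for letters that nuclear respiratory factor 1 (NRF1) and the ETS-family factor GABP are known to bind, since both factors are known to act on many nuclear genes of the chain. The 250 bases before the RefSeq start (GRCh38.p14) were searched on both strands for 65 tested members that matched by symbol. TGCGCA, a part of the NRF1 motif, was in 18 of the 65 (27.7%), against 8.28% of 27305 promoters of the same length. Only exact matches were counted, so that variant sites can be missed. CCGGAAG, an ETS motif, was in 18 (27.7%), against 10.2%. The 27305 promoters were not limited to the 13234 genes tested, while the 65 are tested members, so these shares compare unlike sets. Among the matched members, TGCGCA was in 8 of 34 called higher and in 10 of 29 not called, and CCGGAAG in 7 of 34 and 9 of 29. The median log2 fold change was 0.21 with TGCGCA and 0.23 without, and 0.18 with CCGGAAG and 0.25 without. Members with and without these letters were thus both higher. The promoters of a member that fell and of members that rose with and without these letters are printed 5′ to 3′ in the sense of the gene. CCGGAAG (or CTTCCGG, its form on the other strand) and TGCGCA are in capitals.
NDUFA1, chrX:119871582-119871831 (plus strand): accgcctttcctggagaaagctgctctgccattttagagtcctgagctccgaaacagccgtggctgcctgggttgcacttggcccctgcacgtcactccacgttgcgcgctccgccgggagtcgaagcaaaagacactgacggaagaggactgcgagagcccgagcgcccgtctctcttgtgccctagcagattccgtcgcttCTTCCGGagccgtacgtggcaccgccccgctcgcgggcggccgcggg
SDHB, chr1:17054033-17054282 (minus strand): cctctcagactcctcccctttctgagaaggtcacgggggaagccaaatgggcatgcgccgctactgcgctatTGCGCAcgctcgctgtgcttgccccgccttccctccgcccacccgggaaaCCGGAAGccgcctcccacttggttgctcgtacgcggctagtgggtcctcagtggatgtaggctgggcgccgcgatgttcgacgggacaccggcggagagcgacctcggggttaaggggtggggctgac
ATP5O, chr21:33915805-33916054 (minus strand): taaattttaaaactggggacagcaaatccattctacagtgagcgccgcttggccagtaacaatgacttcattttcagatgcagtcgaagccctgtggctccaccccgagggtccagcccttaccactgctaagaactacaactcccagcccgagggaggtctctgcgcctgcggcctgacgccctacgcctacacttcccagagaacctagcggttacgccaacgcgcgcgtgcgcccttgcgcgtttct
The NDUFA1 window holds 1 CCGGAAG match and no TGCGCA, the SDHB window holds 1 of each, and the ATP5O window holds neither of these exact words.

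Levels per transcript length differed widely among the members. In control cells ATP5B was the highest at 610 CPM per kb of canonical transcript, followed by COX4I1 at 299, ATP5G2 at 285, ATP5O at 265 and COX7C at 255 CPM per kb. Among tested members the lowest were NDUFA4L2 at 0.680 and ATP5S at 1.22 CPM per kb. The median level was 111 CPM per kb for complex IV, 96.9 for complex III, 95.1 for complex V, 77.7 for complex I and 36.1 for complex II. A canonical transcript longer than the form the cells use lowers such a value, and which forms the cells use was not tested.

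**Figure D5:**
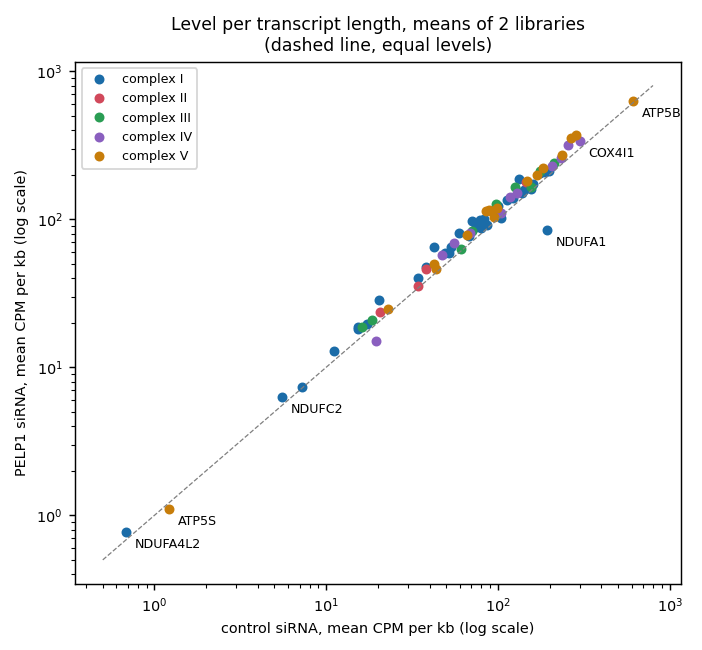
Mean level in control siRNA (x axis) against PELP1 siRNA libraries (y axis), in CPM per kb of canonical transcript on log scales, for 80 members coloured by complex; the dashed line marks equal levels. Most members lie just above the line over the whole range from 0.680 to 610 CPM per kb, and NDUFA1 lies below it at 194 and 84.9.

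Genes that build the chain, or supply its mobile carriers, were counted from lists outside the rule. Of 55 assembly factors and associated genes 15 rose, 1 fell and 39 were not called, where 12.9% of all genes were called higher and 15.0% lower, with a median log2 fold change of 0.15. By the DESeq2 Wald test 10 rose, where 8.56% of all genes were called higher. Most of the 15 rises, and the gene that fell, lost their call when either control library was left out. By complex 5 of 18 rose for complex I, 0 of 4 for complex II (1 at an unadjusted p below 0.05, 0 by DESeq2 and by limma-voom), 2 of 6 for complex III, 4 of 21 for complex IV (1 by DESeq2) and 4 of 6 for complex V (2 by DESeq2). For complex I, C17orf89 (NDUFAF8) rose by 0.46 (adjusted p = 0.00179) and ECSIT by 0.30 (adjusted p = 0.0109). For complex III, C11orf83 (UQCC3) rose by 0.56 (adjusted p = 6.48e-04) and C6orf125 (UQCC2) by 0.55 (adjusted p = 0.00144), while UQCC (UQCC1), at 145 and 144 CPM in control and 114 and 121 CPM in PELP1 siRNA libraries, fell by 0.30 (adjusted p = 0.00171). These 3 genes act together in making cytochrome b, and 40.8% of the exon bases of C11orf83 and 21.9% of those of C6orf125 are shared with genes on the opposite strand. For complex IV, C16orf61 (CMC2) rose by 0.35 (adjusted p = 0.00357) and the copper chaperone COX17 by 0.38 (adjusted p = 0.00900; 0.0552 by DESeq2). For complex V, the assembly factor ATPAF2 rose by 0.43 (adjusted p = 0.0103; 0.0719 by DESeq2) and C14orf2, a small ATP synthase subunit whose symbol the rule does not match, by 0.26 (adjusted p = 0.00987).

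Of 16 genes of cytochrome c and coenzyme Q, 4 rose and 1 fell (median 0.03), where 12.9% of all genes were called higher and 15.0% lower. Most of the 4 rises lost their call when either control library was left out. COQ9, which acts in coenzyme Q synthesis, rose by 0.32 (adjusted p = 0.00424), and CYC1, the cytochrome c1 subunit of complex III, which the symbol rule does not match, rose by 0.25 (adjusted p = 0.00610). HCCS, the enzyme that attaches heme to cytochrome c, was at 57.7 and 55.4 CPM in control and 40.0 and 43.6 CPM in PELP1 siRNA libraries, and fell by 0.44 (adjusted p = 4.75e-04). Among 14 genes listed as regulators of mitochondrial biogenesis, which take in the proteasome gene factor NFE2L1, 1 rose and 2 fell (median -0.11). The shares were 7.14% and 14.3% against 12.9% and 15.0% of all genes, so that these counts are no result about the list. Without either control library, 1 was called lower. PPARGC1A, the coactivator PGC-1alpha, was at 13.8 and 11.6 against 20.8 and 19.1 CPM and rose by 0.66 (adjusted p = 1.46e-04). NFE2L1, a transcription factor of proteasome genes whose older name resembles that of NRF1, was at 600 and 612 against 470 and 469 CPM and fell by 0.37 (adjusted p = 5.67e-05), and the PGC-1-related coactivator PPRC1 fell by 0.28 (adjusted p = 0.00399). The log2 fold change was -0.14 for NRF1 itself (adjusted p = 0.316), -0.14 for the GABP subunit GABPA (adjusted p = 0.343) and 0.02 for the mitochondrial DNA factor TFAM (adjusted p = 0.854), and none of these 3 was called. Of the 24 called genes in these lists of assembly factors, carriers and regulators, 5 were called in all 15 fits: C11orf83, C6orf125, HCCS, PPARGC1A and NFE2L1. The share of all genes called in all 15 fits was not computed for this count either. The other 10 named here with a call lost it without at least 1 of the control libraries, with adjusted p-values there from 0.0542 (C16orf61) to 0.293 (C14orf2).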

How the data were processed

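Total RNA of 4 libraries was sequenced as single 50 bp reads; per the submitters' processing notes, CASAVA 1.8.2, TopHat2 2.0.8b, HTSeq and GRCh37 were used. The HTSeq version, strand setting and annotation release were not given in the sources used here. The authors deposited raw read counts for each gene, which are not normalized. Summary lines that name no gene (36.0 to 37.6% of all lines' reads per library) were left out.

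Counts were tested in R 4.3.3 with edgeR 4.0.16 (robust quasi-likelihood F-test, TMM scaling, genes kept by filterByExpr with a minimum count of 10), PELP1 siRNA against control siRNA, with Benjamini-Hochberg adjustment over 13234 genes and calls at an adjusted p below 0.05. The SE is the log2 fold change divided by the square root of F. The biological coefficient of variation was 5.23%. DESeq2 1.42.0 and limma 3.58.1 (voom) were alternatives. With 2 libraries per group an exact permutation test of a single gene cannot go below p = 0.333, so that calls rest on the fit across genes. On simulated counts of 13234 genes for this comparison, 56% of genes changed by 1.25-fold, 80% by 1.5-fold, 86% by 2-fold and 96% by 4-fold were recovered (50 each), and 12 of 171 calls were false. The simulated counts had the same dispersion in both groups and no shift linked to GC content, unlike the real libraries. The share of false calls in the real data may therefore be higher.

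Exons, transcript length, GC content and 3′ UTRs come from the GENCODE annotation lifted to GRCh37 (1 canonical transcript per gene, 88 of 88 members matched, 19 by an older symbol) and promoters from RefSeq. The members, gene lists and words were chosen with earlier results of these data known. A further 3′ UTR site is not reported here. Named genes are, per complex, up to 4 called members of smallest adjusted p in each direction, all SDH genes, paralog pairs, the 5 members of highest level per length, up to 2 genes in each direction per further list, and the genes that are not subunits.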

Additional observations from a re-analysis of the deposited data

How the results depend on the processing

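The direction of the median of each complex held in all 14 alternative fits, and no called member changed sign. Members that were not called did: 12 had a log2 fold change below 0 without PELP1 siRNA library 2, from -0.34 (NDUFA4L2) to -0.0012, among them SDHC (-0.033), UQCRC1 (-0.031), NDUFV3 (-0.029) and COX8A (-0.010), and SDHC had -0.039 with the length and GC trend removed. The number of members called higher was 41 under DESeq2 size factors (12.9% of all genes tested), limma-voom (12.6%) and no filter (9.63%). It was also 41 under a stricter filter (14.8%) and a fit that is not robust (12.7%). It was 33 under the DESeq2 Wald test (8.56%) and 44 under upper quartile scaling (13.9%). With library totals alone it was 51 (17.2%, where the median of all genes moved to 0.049). Leaving out 1 library at a time gave 11 to 71 members higher and 1 to 2 lower: 5 to 34 higher in complex I, 0 to 3 in complex II, 2 to 9 in complex III, 0 to 10 in complex IV (0 to 1 lower) and 3 to 15 in complex V, whose median ran from 0.23 to 0.32. The medians ran from 0.14 to 0.29 in complex I, 0.16 to 0.27 in complex II, 0.13 to 0.27 in complex III and 0.11 to 0.29 in complex IV, lowest without PELP1 siRNA library 2 and highest without PELP1 siRNA library 1 in each. Without PELP1 siRNA library 1, 30 more members were called; without either control library, 31 calls were lost.

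With the length and GC trend removed, the median was 0.15 in complex I, 0.13 in complex II, 0.16 in complex III, 0.12 in complex IV and 0.14 in complex V. With library totals alone, 8 members of complex IV were called higher. Without the genes that are not subunits, 1 member was called lower, and 0 in complex IV. Replicate numbers did not pair the libraries (correlation of same-numbered deviations -0.031 over 13234 genes, 2 numbers). With the replicate block, 41 members were called higher and 2 lower, against 12.2% and 14.9% of all genes tested, with 1 call lost and 1 gained. Depth limits the 7 members that were not tested and NDUFA4L2. With 2 libraries per group, small rises can be missed.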
